A study of Drosophila melanogaster with 16 samples.

Results

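The proventriculus (PV) is the valve-like organ at the junction of foregut and midgut in Drosophila. Its epithelium secretes the peritrophic matrix, a layered sleeve of chitin, mucins and chitin-binding proteins that separates food and microbes from the gut cells behind it. Other cells can come along in a dissected PV, namely visceral muscle, the end of the esophagus, small neuroendocrine glands, nephrocytes and the nearest midgut. Described here are the 5 libraries of PVs from axenic flies, which are all the axenic libraries among the 16 of the series, chosen by their labels alone. They came from mated adult females of Canton-S, a wild-type strain without a transgene, which were raised without microbes and given none later. Each library came from a pool of about 30 PVs dissected with as little crop duct as possible, and total RNA was depleted of ribosomal RNA with a kit made for mammals before 75-base single-end sequencing. The labels number the libraries 1 to 5 without saying whether they came from separate cultures, so the spread between them may be technical in part. The other libraries were 5 of PVs and 3 each of crops and salivary glands (SGs), all from flies given the bacterium LpWF. Those of the PV and crop were not used here, and those of the SG were read only for the levels of a few named genes.

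Reads on genes numbered 31910278, 22619295, 37855087, 36819259 and 38486247 in replicates 1 to 5. Protein-coding genes held 77.5, 69.6, 73.3, 51.6 and 70.1% of them. Ribosomal RNA and its pseudogenes held 19.3, 22.094, 19.1, 43.4 and 27.9%. Replicates 4 and 5 thus carried over 25%, a limit set here, although replicate 5 was nearer to replicate 2 than to replicate 4. The authors deposited TPM, a level per transcript length scaled to a fixed total over all transcripts, in which a single short noncoding RNA, the 7SL RNA of the signal recognition particle, stood at 221611, 477915, 460580, 356727 and 122390 TPM. Because this RNA alone differed so widely between libraries, TPM was summed per gene and rescaled to a total of 1000000 over the 13619 protein-coding genes. This is called coding TPM below, and all levels are on that scale unless another is named. At least 1 coding TPM was reached by 7896, 7802, 7878, 7777 and 7840 genes, and 7370 genes reached it in all 5 libraries. Across the protein-coding genes, Spearman's correlation between pairs of libraries was 0.966 to 0.981, highest for replicates 4 and 5. This describes likeness over genes, which are no replicates of one another.

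Some markers of the PV epithelium were among the most abundant genes, and others were far lower. All 12 PV epithelium markers taken from the study were above 1 coding TPM, and their sum held 2.88, 2.34, 2.15, 3.70 and 3.39% of the coding total. Muc68D led them, followed by CG43673 at 8550 ± 2759 (SD, n = 5), to at 2940 ± 138 and Pgant4 at 1002 ± 38.975 coding TPM. Among the lower ones were Chs2 at 40.0 ± 7.58, sob at 13.2 ± 1.21 and CG15120 at 2.30 ± 0.257 coding TPM. Pgant4 starts the O-linked sugar chains of mucins, and to (takeout) belongs to the juvenile hormone-binding family. Transcription factors of foregut identity were present at low levels, with drm at 88.9 ± 12.3, dve at 88.1 ± 10.8 and fkh at 32.8 ± 4.90 coding TPM. Esophagus markers held 0.979, 0.912, 1.10, 1.02 and 1.05%, of which EbpIII made up most, and visceral muscle markers 0.197, 0.193, 0.203, 0.188 and 0.237%, led by Mf at 562 ± 75.3 coding TPM.

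Many markers of more distant tissues were low, and others were not. In the list of middle and posterior midgut markers, lab, pros, Ptx1, cad, esg and Vha100-4 averaged under 1 coding TPM, whereas the myosin gene Myo31DF averaged 22.0 ± 2.43 and nub 9.44 ± 2.17 (SD, n = 5). The 9 ovary and eggshell genes of the list together held no more than 0.000159% in any library. Of 4 markers of the kidney-like Malpighian tubules, 2 were expressed, the potassium channel gene Irk2 at 80.6 ± 19.6 and Best2 at 35.2 ± 5.85 coding TPM. ZnT35C averaged 0.242 and the enzyme gene Uro 0.00566, so the list does not show that tubule tissue was present. The hemocyte list held 0.00789 to 0.00859%, mostly from crq. Yolk proteins, made by the fat body of females, were clearly present. Yp3 stood at 1406, 1244, 1214, 645 and 976 coding TPM in replicates 1 to 5, lowest in replicate 4. Elsewhere in the fat body list, apolpp averaged 97.3 ± 28.9 and Fbp2 11.9 ± 1.48 coding TPM, whereas Lsp2, FASN3 and Fbp1 averaged under 1. The visual pigment gene ninaE stood at 40.9, 16.2, 7.69, 11.2 and 9.03 coding TPM, highest in replicate 1. The SG enzymes PH4alphaSG1 and PH4alphaSG2 had no reads. The lysozyme gene LysP of the SG list stood at 36.4, 34.8, 0, 0 and 0 coding TPM, listed at 0 outside replicates 1 and 2. The paper reports LysP both in SGs and in a small cell group of the posterior PV. In bulk tissue such as this, fewer cells of a type and less RNA per cell cannot be told apart.

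A single uncharacterised gene, CG14645, was by far the most abundant. It lies on chromosome arm 3R from 4335098 to 4335506 on the plus strand of BDGP6, with 1 annotated transcript of 409 bases that covers the gene without an intron. Its levels were 308496, 292546, 266957, 360654 and 378232 coding TPM in replicates 1 to 5, a mean of 321377 ± 46728 (SD, n = 5). It thus held 30.8, 29.3, 26.7, 36.1 and 37.8% of the coding total and ranked 1 in every library, while the runner-up, CG3906, averaged 23249 ± 1920 coding TPM and ranked 2 in every library. The share was highest in replicates 4 and 5, at 36.1 and 37.8%, and did not overlap that of the other 3.

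How large that share is depends on how transcript length was handled. TPM divides reads by Salmon's effective length, which in these tables was the same in every library and 250 bases below the transcript length for the median transcript of 1000 bases or more. For CG14645 this leaves 159 of 409 bases. Dividing by the full length instead, a setting added after seeing the data, gave it 21.1% of the coding total, and its share of coding reads, with no division by length, was 6.41%. It ranked 1, 1 and 2 on the 3 scales. The ranks of short ribosomal protein genes moved further. RpL41, with 70 effective bases of 320, was number 3 by coding TPM, 11 by full length and 54 by reads. RpL39, with 41 of 288, was number 6, 39 and 236.

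By reads the leading gene was Muc68D, which encodes a secreted mucin, a protein with long repeats that carry O-linked sugars. The gene runs from 11767299 to 11772157 on the minus strand of arm 3L, and its transcript of 4802 bases is far longer than those above. It stood at 15732, 11606, 12492, 22799 and 17646 coding TPM in replicates 1 to 5, a mean of 16055 ± 4489 (SD, n = 5), highest in replicate 4 and lowest in replicate 2. It took 8.81, 6.88, 6.93, 12.7 and 10.4% of the coding reads. The repeats of the gene show in the probe set that the study designed against its coding sequence for in situ hybridisation. Of 48 probes listed, 36 differ in sequence, and the 3 that are listed more than once are shown here because they share a run of 10 bases, given in capitals, which 15 of the listed probes hold. The sequences are written 5′ to 3′ as the probe list gives them, and the first was listed 10 times, the next 3 times and the last 2 times.
Muc68D-RB-CDS_19: caaaGGACCTTCAGtgctag
Muc68D-RB-CDS_22: aaGGACCTTCAGagctagag
Muc68D-RB-CDS_17: tagacaagGGACCTTCAGtg

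The 30 genes with the highest mean levels held 52.5, 51.6, 47.9, 58.1 and 58.3% of coding TPM in replicates 1 to 5, and 22 genes stood in the top 30 of every library. Beside CG14645 and CG3906, uncharacterised genes among them included CG4783 at 13717 ± 1268, CG43673, CG5506 at 6806 ± 856, CG34324 at 6284 ± 2874 and CG43134 at 5208 ± 687 coding TPM (SD, n = 5). Of the 30, 13 carried only a CG number as symbol, and these 13 held 41.6 ± 5.20% of coding TPM. Such symbols made up 33.3% of the 7887 genes that averaged at least 1 coding TPM. Ag5r, of the family of cysteine-rich secreted venom allergen-like proteins, stood at 4521, 4996, 5856, 3472 and 3735 coding TPM in replicates 1 to 5. CG15043 stood at 4391, 5091, 5704, 2242 and 2853 and CG13323 at 3465, 3662, 4835, 2170 and 2317. All 3 were lower in both replicates 4 and 5 than in any other library, as were 37.3% of the 2711 genes that averaged at least 20 coding TPM. CG14645, CG3906, CG4783 and CG43673 were higher in both, as were 12.7% of the 2711.

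**Figure D1:**
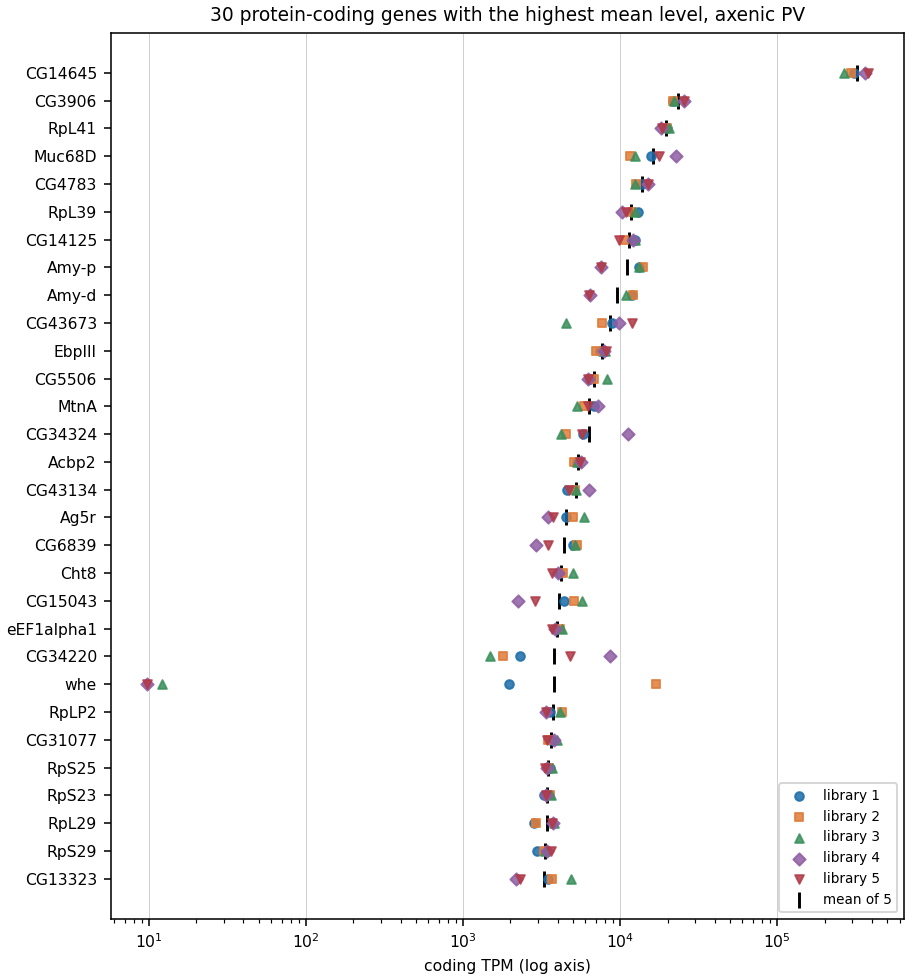
Levels in coding TPM (log axis) of the 30 genes with the highest mean, 1 row per gene. Each symbol is 1 of the 5 axenic PV libraries and the bar is their mean; CG14645 stands more than a factor of 10 right of CG3906, and whe is the gene whose libraries spread most, between 9.68 and 16956 coding TPM.

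Proteins of the peritrophic matrix type formed the next set. CG14125, with peritrophin-type chitin-binding domains, stood at 12446, 10537, 12489, 12008 and 9807 coding TPM in replicates 1 to 5. CG31077 of the same type was steady at 3636 ± 227 coding TPM (SD, n = 5). CG34220, also of this type, stood at 2303, 1801, 1474, 8558 and 4813 coding TPM, and its levels in replicates 4 and 5 lay above those in the other 3. The chitinase gene Cht8 averaged 4226 ± 490.3 coding TPM. Over the whole lists, peritrophin-type genes held 1.93, 1.70, 2.02, 2.50 and 1.86%, mucins 1.59, 1.18, 1.27, 2.30 and 1.78% and chitin synthesis and turnover genes 0.938, 0.945, 1.08, 0.918 and 0.854%. Muc68D made up 98.9% of the mucin sum, and 4 of 18 mucin genes reached a mean of 1 coding TPM. CG14125 made up 57.2% of the peritrophin-type sum. Among chitin genes, Cht9 averaged 1161 ± 72.5, the deacetylase gene Cda9 939 ± 53.4 and the chitin synthase gene Chs2 40.0 ± 7.58 coding TPM. By reads, which are not divided by length, mucins held 9.19 ± 2.44% and peritrophin-type genes 3.30 ± 0.732%. The secretory machinery behind them was moderate, with 0.787 ± 0.0352% for 52 genes, 49 of which reached 20 coding TPM. Its highest members were the chaperone gene Calr at 550.0 ± 38.7 and the disulfide isomerase gene ERp60 at 463 ± 33.7 coding TPM. Glycosylation genes held 0.199 ± 0.00775%.

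Most digestive enzyme genes were lower in replicates 4 and 5. The amylases Amy-p and Amy-d split starch, and as they are near-identical copies whose reads a counter can share out, their sum is given as well. Amy-p stood at 13105, 13940, 13106, 7560 and 7508 coding TPM in replicates 1 to 5, Amy-d at 11866, 12098, 10896, 6439 and 6297, and both together at 24972, 26038, 24003, 14000 and 13805. The same holds for alphaTry and betaTry, copies of a trypsin gene, whose sum was 8726, 6656, 8472, 2565 and 2028 coding TPM. In each of these replicates 4 and 5 lay below all of the other 3. Further abundant members were the serine protease gene Jon65Aiii at 2457 ± 1255, CG18180 at 1785 ± 1366, the carboxypeptidase gene CG12374 at 1395 ± 713 and the nuclease gene CG6839 at 4379 ± 1108 coding TPM (SD, n = 5).

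Together the 91 genes of the digestive enzyme lists held 5.88, 5.19, 5.54, 2.63 and 2.53% of coding TPM. Their mean share was 2.58% in replicates 4 and 5, the libraries with over 25% ribosomal RNA, and 5.54% in the other 3. Of the 29 digestive genes that averaged 20 coding TPM or more, 26 lay lower in both replicates 4 and 5 than in any of the other 3 and none lay higher in both. Of all 2711 genes at this level, 37.3% lay lower in both and 12.7% higher in both. The median difference, replicates 4 and 5 minus the other 3 on the log2 scale, was -1.53 for the digestive genes and -0.10 for all genes. When libraries were scaled by the median of gene ratios in place of their coding totals, 28.4% of all genes lay lower in both and 19.6% higher in both, with 26 of the 29 digestive genes lower and 1 higher. Among genes that did not overlap, the share lying lower was then 59.1%, against 74.6% by coding totals. The part of the ribosomal RNA content, of CG14645 with its larger share in replicates 4 and 5, and of the amount of midgut in the dissections was not tested. The paper reports Amy-p, CG6839, alphaTry and betaTry in cells of the posterior PV itself. The list of middle and posterior midgut markers held 0.00355, 0.00308, 0.00411, 0.00294 and 0.00300% in replicates 1 to 5, and its leading member Myo31DF stood at 22.3, 20.7, 26.2, 20.8 and 20.3 coding TPM. That list was not made for the anterior midgut, which adjoins the PV. Mitochondrially encoded genes, which held 1.17, 1.27, 1.30, 0.869 and 0.842%, were divided in the same way, with 9 of 10 lying lower in both. The vacuolar proton pump held 0.501, 0.477, 0.499, 0.340 and 0.365%, with 15 of 16 genes lower in both.

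The protein synthesis machinery was the largest class on coding TPM. The 93 cytosolic ribosomal protein genes held 18.3, 19.1, 19.7, 17.4 and 17.5% of coding TPM in replicates 1 to 5, a mean of 18.4 ± 1.01% (SD, n = 5), with 84 of them above 20 coding TPM. RpL41 at 19444 ± 951 and RpL39 at 11680 ± 1097 coding TPM led, with the caution on short transcripts given above, and RpLP2, RpS25 and RpS23 followed at 3744, 3494 and 3442. By reads the class held 9.06 ± 0.599% and was not the largest, as mucins held 9.19 ± 2.44%. Translation factors held 1.24 ± 0.0831%, led by eEF1alpha1, which brings tRNAs to the ribosome, at 3980 ± 228 coding TPM. Nuclear genes of oxidative phosphorylation held 1.46 ± 0.138%, glycolysis 0.266 ± 0.0166% and the ubiquitin and proteasome list 0.363 ± 0.0467%.

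Small carriers, lipid genes and metal-binding proteins made up a further block. The juvenile hormone-binding family with other small-ligand carriers held 1.29, 1.20, 1.34, 1.32 and 1.34%, among the steadiest sums on this scale. EbpIII, a small secreted protein first known from the ejaculatory bulb, stood at 7400, 7030, 7949, 7856 and 8123 coding TPM and made up 59.1% of that sum. With CG14645 left out of the total, the carrier list held 1.92 ± 0.188% and was less steady. Fat synthesis and storage genes held 1.21 ± 0.0722%, with Acbp2, which binds acyl-CoA, at 5390 ± 207 and the fatty acid elongase gene CG31523 at 1396 ± 149 coding TPM. The copper-binding metallothionein MtnA stood at 6837, 5904, 5287, 7220 and 6223 coding TPM and made up 73.8% of the metal list. The ferritin genes Fer1HCH and Fer2LCH averaged 557 ± 99.8 and 414 ± 80.3 coding TPM. Detoxification genes, although 152 in number, held 0.372 ± 0.0460%, muscle contraction genes 0.426 ± 0.0264% and the 133 cuticle protein genes 0.0875 ± 0.0144%, with Cpr67B making up 80.8% of the last.

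**Figure D2:**
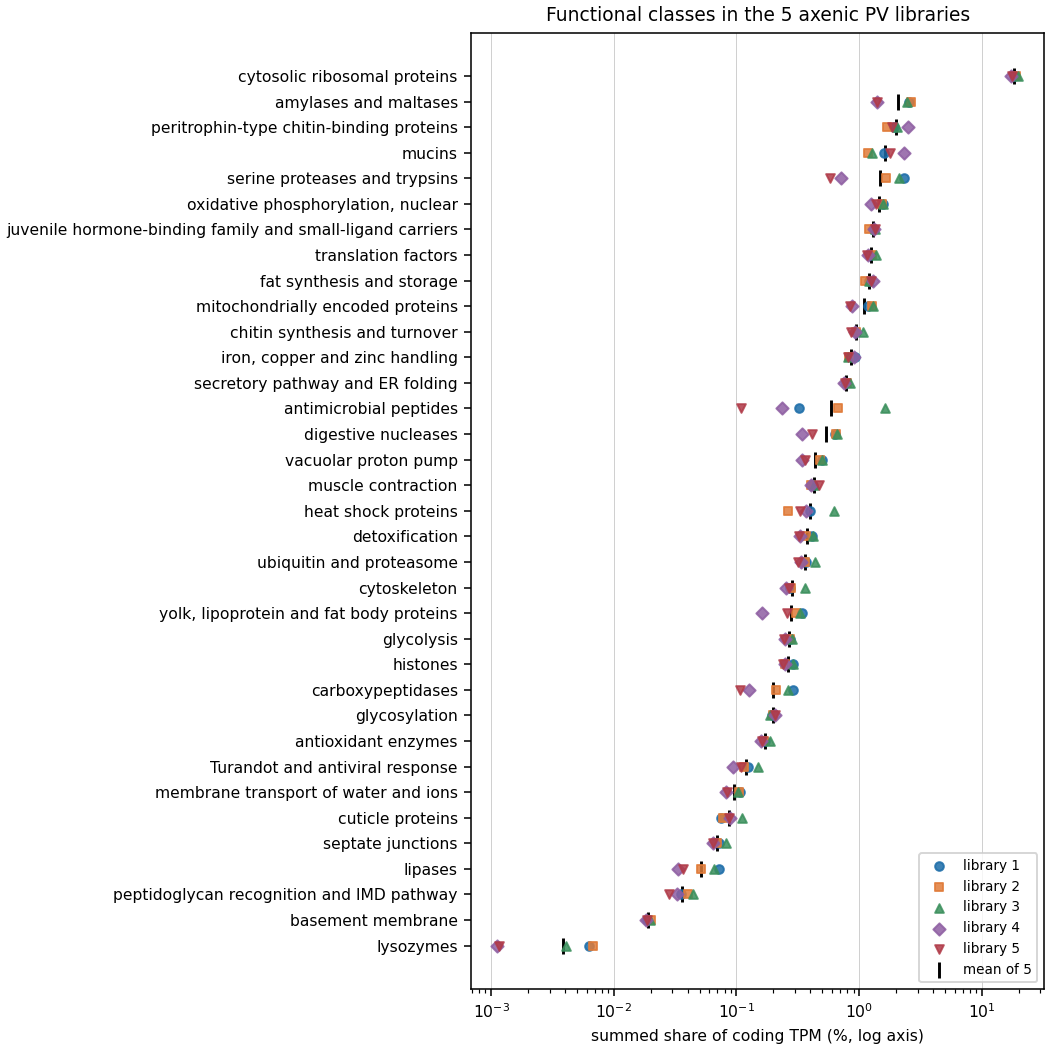
Summed share of coding TPM (%, log axis) of 35 functional classes, one row per class, ordered by mean. Each symbol is 1 of the 5 axenic PV libraries and the bar is their mean; cytosolic ribosomal proteins lie between 17.4 and 19.7%, while antimicrobial peptides spread between 0.109 and 1.63%.

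All 35 classes together, with 1322 genes, held 41.2, 40.5, 44.3, 37.0 and 35.7% of coding TPM, and genes in no class, CG14645 foremost, the remainder. The distribution was steep. The 10 highest genes held 43.9, 41.5, 38.8, 48.8 and 50.1%, a mean of 44.6 ± 4.81% (SD, n = 5), and 50% of the total was reached by 22, 24, 32, 11 and 10 genes in replicates 1 to 5. Replicates 4 and 5 were thus the most concentrated. The 100 highest held 68.9 ± 2.53% and the 1000 highest 89.7 ± 0.563%. Divided by full length, the 10 highest held 34.3 ± 4.30%, and by reads 25.6 ± 3.30%. The top 10 shared 7 genes over all libraries, and 15 genes were in the top 10 of at least 1. The 15 included whe, number 4 in replicate 2 but 4034 or lower in replicates 3 to 5, DptA, number 10 in replicate 3 but 2546 in replicate 5, and CG34220, number 10 in replicate 4 but outside the 100 highest in replicate 3.

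**Figure D3:**
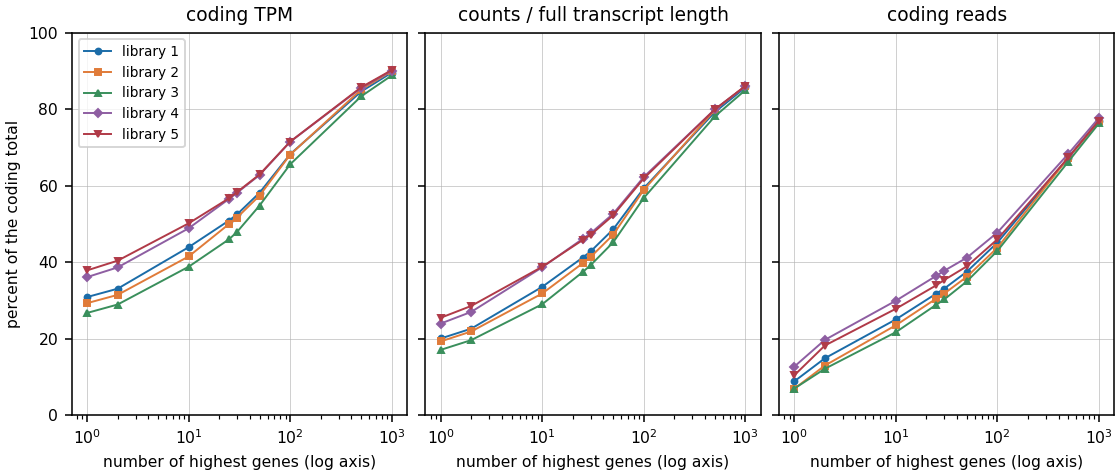
Percent of the coding total (vertical axis, from 0 to 100%) held by the highest genes against their number (log axis), on 3 scales. Each line is 1 of the 5 axenic PV libraries; the 10 highest genes hold 38.8 to 50.1% of coding TPM, 29.0 to 38.8% when counts are divided by full length and 21.7 to 29.9% of reads.

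Most genes differed little between the libraries. Spread was measured as the SD of log2(coding TPM + 1) over the 5 libraries in the 2711 genes that averaged at least 20. Its median was 0.15, with quartiles of 0.10 and 0.22, whereas counting error alone would give a median of 0.03. An SD above 1 was found for 56 genes, 2.07% of the 2711. The highest of the 5 libraries was replicate 3 for 27 of the 56, replicate 1 for 13, replicate 2 for 12, replicate 4 for 4 and replicate 5 for none. Of the 56, 39 lay lower in both replicates 4 and 5 than in the other 3, against 37.3% of all 2711 genes. The 20 with the largest spread ended at an SD of 2.06 for Peritrophin-15b, and the next gene, Drsl2, had 1.98.

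**Figure D4:**
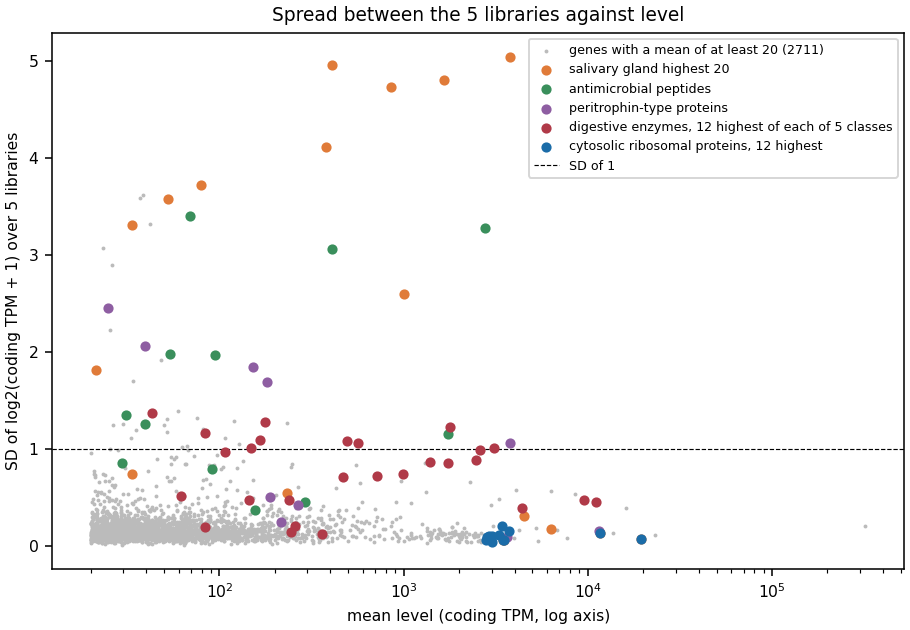
SD of log2(coding TPM + 1) over the 5 axenic PV libraries (vertical axis) against mean level in coding TPM (log axis), 1 point per gene with a mean of at least 20. Coloured sets are the 20 genes highest in SG libraries and members of 4 classes; 56 of 2711 points lie above the dashed line at 1, and the 12 highest ribosomal protein genes lie far below it.

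The genes with the largest spread of all were high in replicate 2. whe stood at 1945, 16956, 12.1, 9.72 and 9.68 coding TPM in replicates 1 to 5, CG45080 at 759, 7498, 7.53, 4.88 and 4.86 and CG16826 at 653, 3629, 4.13, 2.90 and 3.07. In each, replicate 2 was highest, replicate 1 next and the other 3 near the floor. CG34212, CG33109, CG43679 and CG13947 had the same order of these 2 libraries over the rest, and CG43680 was read in replicate 2 alone, at 167 coding TPM. lcs stood at 1167, 3521, 196, 53.9 and 71.4 coding TPM. In the 3 SG libraries of the series, made from flies given LpWF by poly(A) selection, CG45080 ranked 1 by mean coding TPM, whe 2, CG34212 3, CG16826 4 and lcs 5. There, whe reached 289747, 297082 and 320918 and CG45080 339994, 305582 and 302704 coding TPM. Of the 20 genes highest in SGs, 18 averaged at least 20 coding TPM in axenic PVs, and 10 of these were among the 56 with an SD above 1, a limit passed by 2.07% of all genes at that level. CG43680, CG13947, CG33109 and CG43679 reached that mean only through replicate 2, and CG42656 only through replicate 1. The count is therefore not read as a trait of the 20 genes. Those 20 genes held 5.65, 8.61, 5.20, 4.63 and 4.63% of coding TPM in the axenic PV libraries 1 to 5, which includes genes such as RpL41 and MtnA that were steady throughout. The paper's single-cell data report CG45080, CG34212 and CG13947 as highly expressed in a small cell group of the posterior PV. Whether SG tissue in the dissections or such PV cells have a part in these differences was not tested.

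Antimicrobial peptide genes as a sum were highest in replicate 3 and lowest in replicate 5. DptA, a diptericin active against Gram-negative bacteria and a target of the IMD pathway, stood at 924, 2482, 9669, 679 and 20.6 coding TPM in replicates 1 to 5. Its neighbour and homolog DptB stood at 121, 453, 1399, 77.8 and 4.03, and the defensin gene Def at 1601, 2260, 3412, 950.4 and 431. DptA thus ranged from 20.6 to 9669 coding TPM. The 38 antimicrobial peptide genes together held 0.325, 0.670, 1.63, 0.234 and 0.109% of coding TPM, and DptA made up 46.4% of their mean sum. Of the 13 with a mean of at least 20, 9 had an SD above 1, against 2.07% of all 2711 genes, among them IM18 at 0.739, 72.1, 267, 7.25 and 0.176, CecA1 at 59.6, 114, 247, 48.9 and 5.47 and AttD at 8.62, 45.6, 66.5, 5.44 and 0.524 coding TPM. AttD reached a mean of 20 only through replicate 3. BomS6 and IM33 differed less, with SDs of 0.46 and 0.37. In the recognition and signalling list, PGRP-SD, a secreted peptidoglycan sensor, stood at 27.6, 83.0, 105, 22.0 and 2.74 coding TPM, in the order of DptA. The transcription factor gene Rel was steadier, at 58.8, 56.8, 54.3, 52.5 and 43.1 coding TPM. The receptor gene PGRP-LC stood at 20.7, 16.9, 19.979, 26.5 and 24.01. That list as a whole held 0.0350, 0.0403, 0.0441, 0.0328 and 0.0282%. The marker list of the fat body, a major source of such peptides in the blood, held 0.335, 0.296, 0.317, 0.155 and 0.250%, mostly from yolk protein genes. The hemocyte list held 0.00789 to 0.00859% as above. The part of fat body and hemocytes in these differences was not tested.

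Replicate 3 was also highest for a few chitin-binding proteins and for stress genes. Peritrophin-15a stood at 84.963, 100.2, 530.2, 24.1 and 22.2 coding TPM, Peritrophin-15b at 11.0, 25.2, 153, 3.88 and 4.18 and CG7298 at 2.02, 8.01, 113, 1.13 and 0.934. These 3 were several times higher in replicate 3 than in any other library. CG7017 stood at 158, 210.2, 436, 89.2 and 18.2 and CG42397 at 64.2, 52.2, 216, 24.2 and 21.4 coding TPM. Of the 10 peritrophin-type genes with a mean of at least 20, 5 had an SD above 1, against 2.07% of all 2711 genes, and the abundant CG14125 and CG31077 had 0.16 and 0.09. CG7298 and Peritrophin-15b are among the 5, and both reached that mean only through replicate 3. CG34220, also among them, was lowest in replicate 3. The count is therefore not read as a trait of the class. The Hsp70 copies, heat-inducible chaperone genes of nearly one sequence, summed to 1324, 570.0, 2408, 1269 and 975 coding TPM, and Hsp26 stood at 274, 100.1, 461, 224 and 168. The constitutive Hsc70-4 was steady at 889 ± 92.1 coding TPM (SD, n = 5). The cytoskeleton list held 0.272, 0.277, 0.364, 0.253 and 0.266%, again highest in replicate 3.

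Some genes of the hormone glands differed between libraries. Akh encodes the adipokinetic hormone of the corpus cardiacum, a gland on the esophagus just anterior to the PV. It stood at 70.7, 10.4, 22.7, 109 and 84.997 coding TPM in replicates 1 to 5, lowest in replicate 2. CG8180, the other gene of the corpus cardiacum list, was steady at 22.3, 19.2, 25.8, 21.3 and 24.7 coding TPM. The uncharacterised CG14075, which is on neither list and was chosen after its values were seen, stood at 45.0, 9.78, 24.5, 97.9 and 81.8. In the corpus allatum list, jhamt, which methylates juvenile hormone acid, stood at 79.0, 112, 61.3, 16.1 and 64.9 and Cyp6g2 at 78.7, 82.1, 44.9, 16.9 and 66.6 coding TPM, both lowest in replicate 4.

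**Figure D5:**
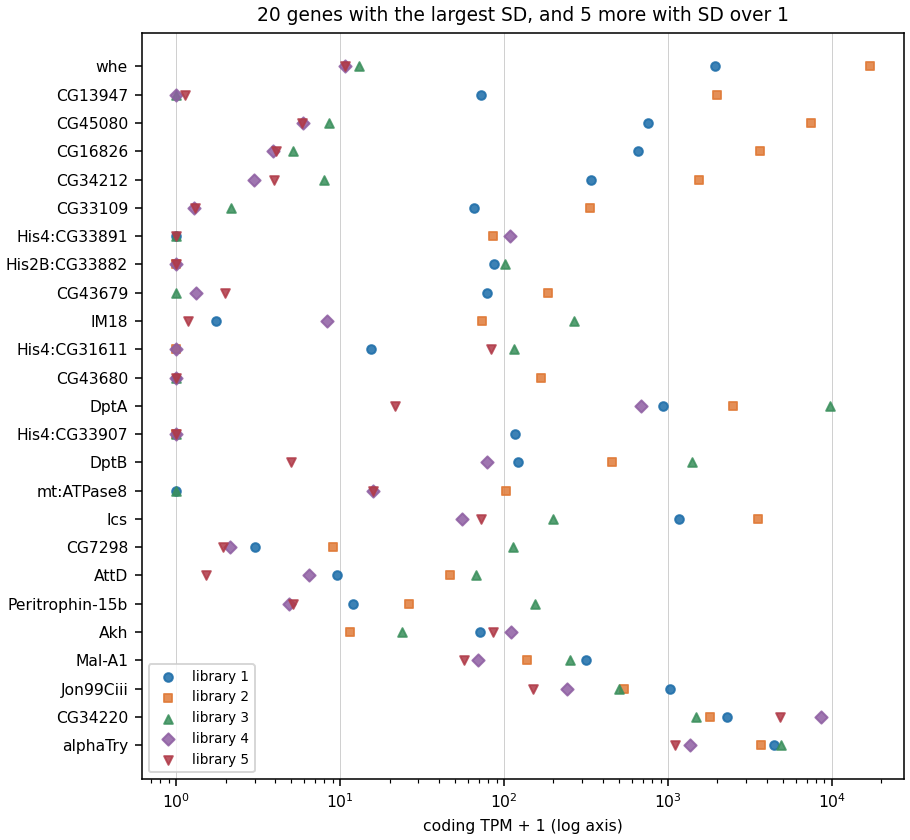
Coding TPM + 1 (log axis) in each of the 5 axenic PV libraries for the 20 genes with the largest SD of log2 level, and below them 5 further genes with an SD above 1 chosen after their values were seen. The SG-high genes have replicate 2 at the right, the diptericins and Peritrophin-15b have replicate 3 at the right, and the single histone copies lie between 0 and 116.

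Single copies of multi-copy genes spread more than their sums. The replication-dependent histone copies His4:CG33891, His4:CG31611, His4:CG33907 and His2B:CG33882 are near-identical, and each was listed at 0 in 2 or more libraries and reached 100.3 to 116 coding TPM in its highest library. Summed, the His4 copies stood at 139.5, 84.3, 113, 110.2 and 113 coding TPM, an SD of log2 of 0.26, against 3.61 for His4:CG33891 alone. The His2B copies summed to 431, 274, 421, 323 and 294, an SD of 0.30. mt:ATPase8, which overlaps mt:ATPase6 in the mitochondrial genome, stood at 0, 101, 0, 14.9 and 14.8 coding TPM, and its values are uncertain too.

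The steadiest abundant genes came from several cell functions. Among the 699 genes that averaged 100 coding TPM or more, egr, the tumour necrosis factor gene of Drosophila, had the smallest SD of log2 level, at 112, 116, 116, 115.4 and 116 coding TPM in replicates 1 to 5. Gdi, which recycles Rab proteins of vesicle traffic, stood at 192 ± 3.37, the transaldolase gene Taldo at 323 ± 6.52 and Rack1, a protein of the small ribosomal subunit, at 1346 ± 32.5 coding TPM (SD, n = 5). TM9SF2, sordd1, AdipoR, SsRbeta, RpL23 and Agps completed the 10, all with SDs of no more than 0.04. The order was taken on coding TPM. Median-of-ratios factors ran from 0.969 in replicate 2 to 1.07 in replicate 3, so SDs this small depend on the scale. By class, the median SD of log2 of members that averaged 20 or more was 0.11 for ribosomal proteins, 0.11 for the secretory pathway and 0.09 for glycolysis. It was 0.98 for serine proteases and 1.35 for antimicrobial peptides, against 0.15 for all genes.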

How the data were processed

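The authors processed the reads with a Nextflow workflow and Salmon on BDGP6, Ensembl release 98, and deposited 1 table per library. Its estimated counts are deposited per transcript with no normalization. The deposited TPM values were scaled by the authors over all transcripts, noncoding RNA included. The 33704 transcripts were summed to 17039 genes with Ensembl release 115, leaving out 271 transcripts with no gene there, 0.128 to 0.238% of reads, and TPM was rescaled over 13619 protein-coding genes. Depths of 22619295 reads or more gave a median SD of log2 from counting of 0.03 among genes that averaged at least 20 coding TPM, but up to 1.29 among the 20 most variable. The named genes are the 30 highest means, the 20 largest SDs of log2(coding TPM + 1) at a mean of at least 20, the 10 smallest at a mean of at least 100, the 3 highest of each class, and markers. Other genes were chosen after their values were seen. Members and lists were chosen with earlier results of these data known. Older symbols were matched through RefSeq synonyms, and 11 list symbols matched no gene. There was 1 group, so no conditions were compared. Libraries above and below 25% ribosomal RNA were set side by side as description, without a test. Dixon's ratio was used to screen for single libraries far from the rest. No library was a copy of another, as counts between pairs varied at least 31.8 times as much as counting predicts. The spread ranking was tested on simulated data. Alternatives were other scales, filters and pseudocounts and leaving out libraries. Python 3.11.15 with pandas 2.3.3, numpy 2.4.6 and matplotlib 3.10.9 was used.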

Additional observations from a re-analysis of the deposited data

Results flagged for a closer look

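Of 97 results screened for 1 library far from the other 4 by Dixon's ratio, 16 were picked out. Chance alone picks about 1 in 20, but 13 of the 16 are among the 20 genes chosen for their large SD in these same libraries, so the number picked out cannot be read against that rate. Of the 67 results not chosen by their SD, 2 were picked out. Replicate 2 stood apart in 8, replicate 3 in 5, replicate 1 in 2, replicate 4 in 1 and replicate 5 in none. Genes far higher in replicate 2 than in the next library were whe at 16956 against 9.68 to 1945, CG13947 at 1977 against 0 to 71.4, CG45080 at 7498 against 4.86 to 759, CG16826 at 3629 against 2.90 to 653, CG34212 at 1546 against 2.0 to 336, CG33109 at 332 against 0.278 to 64.0, CG43680 at 167 against 0 and mt:ATPase8 at 101 against 0 to 14.9 coding TPM, and most of them were next highest in replicate 1. Those far higher in replicate 3 than in the next library were DptA at 9669 against 20.6 to 2482, IM18 at 267 against 0.176 to 72.1, CG7298 at 113 against 0.934 to 8.01 and Peritrophin-15b at 153 against 3.88 to 25.2 coding TPM, and the cytoskeleton list at 0.364 against 0.253 to 0.277% of coding TPM. CG34324 stood at 11266 against 4170 to 5772 coding TPM in replicate 4. In replicate 1, the single histone copy His4:CG33907 stood at 116 against 0 coding TPM and egr, low there, at 112 against 115.4 to 116, a gap of a few percent in the steadiest gene.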

How the results depend on the processing

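Scale decided the concentration values. The share of the 10 highest genes, 44.6% on coding TPM, was 59.3% of TPM over all genes, 25.6% of reads, 34.3% with full lengths and 19.6% with CG14645 left out. The number of genes holding 50% of the total, 19.8 on average, was 5.60, 142, 51.6 and 79 under the same settings. The summed share of the functional classes, 39.7%, was 16.1, 46.2, 44.0 and 58.5%. Full lengths, CG14645 left out, and replicates 1 and 2 left out together were added after seeing the data. Without 1 library at a time the 3 values ran from 43.232 to 46.1%, 16.75 to 22.2 genes and 38.6 to 40.7%, within 1 SD of the values reported. Leaving out both libraries with over 25% ribosomal RNA gave 41.4%, 26 genes and 42.0%.

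The number of genes with an SD above 1, 56, became 99 at a minimum mean of 5 coding TPM and 23 at 100, since these settings test more or fewer genes. It was 60 with a pseudocount of 0.1, 53 with median-of-ratios factors, 51 by reads, 47 to 59 without 1 library at a time and 61 without replicates 1 and 2 together, when 10 of the 20 most variable genes still had an SD above 1. No paired analysis was possible because only 1 group was described. Depth limits genes of few reads, short ones included, such as CG13947, CG45080 and the single histone copies.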
